A study of Mus musculus with 14 samples.

Results

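Wild-type mouse liver was examined here after a low dose of tunicamycin, in the 6 libraries labelled WT out of 14 in the series. Of these 6, 3 came from tunicamycin and 3 from vehicle, and they were chosen by their genotype and treatment labels, not by any measured value. WT stands for Rbbp5 (flox/flox), Alb-CRE (-/-) mice, so both treatment groups carried the floxed alleles without the albumin-driven Cre. All mice were male littermates between 5 and 7 months old. The treated group received 0.05 mg/kg of tunicamycin by intraperitoneal injection, in 500 µl of PBS with 3% DMSO, and the control group the same solution without the drug. Injections were made between 9 and 10 am, and the liver was taken 8 hours later, a single dose and a single time. The other 8 libraries are from RBBP5 LKO littermates, which carry 1 Alb-CRE allele, and they enter as a comparison at the end. The labels do not state which library came from which mouse, so p-values measure the spread between these samples.

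Tunicamycin blocks the enzyme that starts the dolichol-linked sugar chain from which proteins receive their N-glycans in the endoplasmic reticulum (ER). Unglycosylated proteins fold poorly, and cells answer through the unfolded protein response, whose sensors IRE1, ATF6 and PERK raise ER chaperones, ER-associated degradation (ERAD) and, through ATF4 and CHOP, a stress program. The liver secretes most plasma proteins, and its hepatocytes also make the acute-phase proteins, whose genes respond to cytokines such as IL-6.

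Reads were counted on the gene's strand, and the 6 libraries held from 6507018 to 7924710 of them. Rn45s, the 45S ribosomal RNA precursor, took from 72.9 to 75.5% of these reads although the labels name polyA RNA, which left from 1704479 to 2095849 reads for all other genes. Among the libraries of 1 group, the chi-square of reads per gene was from 3.38 to 4.02 per degree of freedom between vehicle libraries and 6.23 between tunicamycin libraries 1 and 2. It was 25.9 between tunicamycin libraries 1 and 3 and 25.8 between 2 and 3, so library 3 stood apart. Results are therefore given library by library, always in the order 1, 2, 3, in CPM (a gene's reads over the TMM-adjusted total of its library, Rn45s included). Hepatocyte markers summed to 29220, 32730 and 31810 CPM in vehicle and to 32030, 45330 and 31300 CPM in tunicamycin, so only library 2 lay above the vehicle range. On this TMM scale Rn45s was at 675800, 754900 and 693400 CPM in vehicle and at 764800, 885100 and 812600 CPM in tunicamycin, also highest in library 2. Rbbp5 was at 4.07, 6.41 and 5.10 CPM in vehicle and at 5.37, 5.03 and 5.71 CPM in tunicamycin. In bulk liver, fewer cells of a type and less RNA per cell cannot be told apart.

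Tunicamycin raised 28 genes and lowered 7 of the 9644 tested, at an adjusted p under 0.05 by the quasi-likelihood test of edgeR. These are 0.290% and 0.0726% of the genes tested, 0.363% together. The 28 genes were led by ER chaperones, protein disulfide isomerases and ERAD components, and the 7 by Dusp1, a phosphatase that inactivates MAP kinases. Without adjustment, 765 genes were higher at p under 0.05 (7.93%) and 661 lower (6.85%). In 832 genes every tunicamycin library lay above every vehicle library (8.63%), and in 834 every one lay below (8.65%). Of the 35 called genes, 34 showed no overlap between treated and control libraries, and Ddit3 was the exception.

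The number of called genes varied with single libraries. With edgeR it was 0 without vehicle library 1, vehicle library 2 or tunicamycin library 1, where 1159, 1241 and 1000 genes had an unadjusted p under 0.05. It was 2 without vehicle library 3. It was 615 without tunicamycin library 3, and 34 without tunicamycin library 2. The LKO libraries share the estimate of the spread, and leaving out 1 of their samples gave from 8 to 68 calls. The lowest of these, 18, 12, 9 and 8, came without LKO tunicamycin libraries 1, 2, 3 and 4, and the highest, 53 and 68, without LKO vehicle library 2 and without libraries 3 and 4, which were summed. Scaling by total count moved the median of all genes by -0.18 on the log2 scale, and the calls then were 33 higher and 115 lower, so directions below are relative to the bulk of the genes.

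The chaperones of the ER lumen formed the largest group of called genes. Of 28 genes listed as ER chaperones and lectins, 25 were tested and 8 rose, against 0.290% of all genes. In 18 of the 25, every tunicamycin library lay above every vehicle library, against 8.63% of all genes. Their median log2 fold change was 0.60, against 0.01 for all genes. Without tunicamycin library 3, 13 of the 25 rose (3.22% of all genes), 1 did without vehicle library 3, and none did without tunicamycin library 1 or vehicle library 1 or 2. The calls were 5, 4 and 4 without LKO tunicamycin library 2, 3 or 4. Of all genes, 10 of 9557, 8 of 9543 and 7 of 9549 rose in these runs. With the 6 WT libraries only, 3 of 24 rose (5 of 8809 genes), and without tunicamycin library 2 it was 9 of 25 (31 of 9951). With limma-voom 4 of 25 rose (7 of 9644 genes), and with DESeq2 12 of 21 (103 of 4781). The list median was 0.42 with total count scaling and positive in every alternative run.

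Hspa5, which encodes BiP, the main Hsp70 chaperone of the ER (chromosome 2, 34772090 to 34776529, GRCm38), was at 197, 211 and 253 CPM in vehicle. In tunicamycin it was at 854, 313 and 786 CPM. All 3 treated libraries were above the controls, with library 2 closest to them. The log2 fold change was 1.56 ± 0.29 (SE, n = 3 against 3), with an edgeR adjusted p of 0.0388.

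Hsp90b1 encodes GRP94, the Hsp90 chaperone of the ER. It was at 239, 260 and 281 CPM in vehicle and at 751, 412 and 717 CPM in tunicamycin, a log2 fold change of 1.27 ± 0.20 (edgeR adjusted p = 0.0170). Hyou1, a large Hsp70-like protein that exchanges nucleotide on BiP, was at 43.7, 50.7 and 51.8 CPM in vehicle and at 128, 67.3 and 118 CPM in tunicamycin, a log2 change of 1.1 ± 0.22 (edgeR adjusted p = 0.0399). In both genes library 2 again gave the smallest rise.

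Dnajb11, a J-domain partner of BiP, behaved more evenly. It was at 19.6, 22.3 and 23.9 CPM in vehicle and at 49.3, 41.7 and 42.5 CPM in tunicamycin, a log2 fold change of 1.02 ± 0.14 (edgeR adjusted p = 0.00711). Sdf2l1, which joins that complex, was at 5.27, 4.74 and 4.96 CPM in vehicle and at 19.4, 10.9 and 18.1 CPM in tunicamycin, a log2 change of 1.69 ± 0.28 (edgeR adjusted p = 0.0170).

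Fkbp11, a peptidyl-prolyl isomerase of the secretory pathway, was at 3.47, 3.20 and 3.21 CPM in vehicle and at 8.53, 7.62 and 8.34 CPM in tunicamycin (log2 1.30 ± 0.22, edgeR adjusted p = 0.0213). Its 3 treated values spanned less than those of Hspa5. Manf, a small ER protein that is secreted under stress, was at 27.8, 25.4 and 27.1 CPM in vehicle and at 89.7, 33.7 and 96.0 CPM in tunicamycin (log2 1.45 ± 0.28, edgeR adjusted p = 0.0399). Nucb2, a calcium-binding protein of the secretory pathway, was at 3.71, 1.41 and 2.62 CPM in vehicle and at 12.3, 6.81 and 7.10 CPM in tunicamycin (log2 1.75 ± 0.34, edgeR adjusted p = 0.0399).

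Members of the list outside the calls are given for contrast. Calr, the lectin chaperone calreticulin, was at 201, 209 and 218 CPM in vehicle and at 385, 328 and 343 CPM in tunicamycin (log2 0.75 ± 0.17, edgeR adjusted p = 0.0598). Canx, its membrane-bound relative, was at 169, 170 and 166 CPM in vehicle and at 184, 175 and 185 CPM in tunicamycin, with an edgeR adjusted p of 0.759. Creld2, a secreted ER stress protein, was at 8.98, 8.33 and 10.8 CPM in vehicle and at 59.0, 13.3 and 49.7 CPM in tunicamycin (edgeR adjusted p = 0.0512).

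Sequences around the transcription starts are shown for the called genes that carry a complete ER stress motif, because these motifs are the best known DNA elements of the response. RefSeq windows from 250 bases before to 50 after the start (GRCm38.p6) matched 28 of the 35 called genes, 23 that rose and 5 that fell. Eno1b, Sept11, Hist1h1c, Manf, Hist1h1e, Hyou1 and Adcy6 had no window. The ER stress element ERSE was searched as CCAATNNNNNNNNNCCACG and ERSE-II as ATTGGNCCACG, on both strands. ERSE stood in the windows of 3 of the 23 genes that rose, Hspa5, Hsp90b1 and Derl3, against 0.202% of the 7415 tested genes with a window and 0.119% of all 32851 windows. ERSE-II stood in 1 of the 23, Dnajb11, against 0.108% and 0.0365%. Neither stood in any of the 5 windows of genes that fell, and at shares this low 5 windows are too few to show a difference.

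In the lines below, capitals mark the motif, and each sequence runs 5′ to 3′ on the strand of its gene. The windows are chr2:34771840-34772139 (plus strand) for Hspa5, chr10:86705395-86705694 (minus) for Hsp90b1, chr10:75893148-75893447 (plus) for Derl3 and chr16:22857595-22857894 (plus) for Dnajb11. Counted from the start, the leftmost base of the motif is at -65 in Hspa5, at -212 and -107 in Hsp90b1, at -156 in Derl3 and at 8 in Dnajb11.
Hspa5: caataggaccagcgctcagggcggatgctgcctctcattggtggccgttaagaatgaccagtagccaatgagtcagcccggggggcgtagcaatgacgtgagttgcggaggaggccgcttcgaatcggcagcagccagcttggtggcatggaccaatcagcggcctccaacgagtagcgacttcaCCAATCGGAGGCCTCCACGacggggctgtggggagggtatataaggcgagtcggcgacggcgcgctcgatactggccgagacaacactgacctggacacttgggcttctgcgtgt
Hsp90b1: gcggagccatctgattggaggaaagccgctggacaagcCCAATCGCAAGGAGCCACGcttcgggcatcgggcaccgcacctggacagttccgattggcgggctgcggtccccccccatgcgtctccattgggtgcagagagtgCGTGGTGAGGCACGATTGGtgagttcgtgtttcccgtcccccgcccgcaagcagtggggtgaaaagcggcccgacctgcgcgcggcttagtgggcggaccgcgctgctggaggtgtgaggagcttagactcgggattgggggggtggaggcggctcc
Derl3: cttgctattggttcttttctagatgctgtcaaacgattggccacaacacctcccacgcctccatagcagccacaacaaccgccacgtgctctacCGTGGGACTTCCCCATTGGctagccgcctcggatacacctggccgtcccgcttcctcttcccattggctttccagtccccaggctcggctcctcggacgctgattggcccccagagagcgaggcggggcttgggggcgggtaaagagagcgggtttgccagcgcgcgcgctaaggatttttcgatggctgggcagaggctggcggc
Dnajb11: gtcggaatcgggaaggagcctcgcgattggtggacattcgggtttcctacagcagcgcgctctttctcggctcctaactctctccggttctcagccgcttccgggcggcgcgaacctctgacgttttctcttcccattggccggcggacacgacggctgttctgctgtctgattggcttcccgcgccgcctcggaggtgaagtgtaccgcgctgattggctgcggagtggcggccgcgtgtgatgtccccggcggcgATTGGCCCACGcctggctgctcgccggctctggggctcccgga

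Shorter motifs were searched in the same windows. The UPRE core TGACGTGG stood in Morf4l2 (1.04% of tested genes), and the C/EBP-ATF element TGATGCAA stood in Nupr1 (0.782%). The cyclic AMP element TGACGTCA, which shares its first 6 letters with the UPRE core, stood in Ddx28 and Dusp1 (3.76%). Nupr1 is shown because it had the largest fold among the called genes. Its element is in capitals, on the opposite strand at -110 of chr7:126625421-126625720 (minus strand).
Nupr1: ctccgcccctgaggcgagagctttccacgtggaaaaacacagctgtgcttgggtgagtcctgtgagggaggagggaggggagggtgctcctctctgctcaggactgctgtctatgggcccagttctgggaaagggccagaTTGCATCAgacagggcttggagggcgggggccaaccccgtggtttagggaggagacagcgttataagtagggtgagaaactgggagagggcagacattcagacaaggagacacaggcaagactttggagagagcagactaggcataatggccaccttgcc
A match says only that these letters lie in the window.

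Protein disulfide isomerases make and shuffle the disulfide bonds of secreted proteins. Of 20 tested genes on this list 2 rose (0.290% of all genes). At an unadjusted p under 0.05, 10 were higher (7.93%) and none was lower (6.85%). Pdia4 (chromosome 6, 47796141 to 47813512) had the smallest p of all genes. It was at 58.4, 54.8 and 69.5 CPM in vehicle and at 230, 128 and 209 CPM in tunicamycin, a log2 fold change of 1.63 ± 0.22 (edgeR adjusted p = 0.00711). Pdia3, which works with calreticulin and calnexin on glycoproteins, was at 147, 148 and 167 CPM in vehicle and at 291, 220 and 279 CPM in tunicamycin (log2 0.77 ± 0.16, edgeR adjusted p = 0.0417). Pdia6 was at 50.7, 49.3 and 51.6 CPM in vehicle and at 98.4, 74.1 and 85.2 CPM in tunicamycin, without overlap but with an edgeR adjusted p of 0.0617. For Pdia4 and Pdia3 alike, library 2 was the lowest of the treated libraries.

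ERAD carries misfolded proteins out of the ER to the proteasome. Of 31 tested ERAD genes 2 rose and none fell, against 0.290% and 0.0726% of all genes. Their median log2 fold change was 0.25, and 0.06 with total count scaling. Derl3, a membrane protein of this route, had 6, 1 and 6 reads in vehicle and 96, 23 and 97 in tunicamycin. As CPM these are 0.719, 0.128 and 0.875 against 13.2, 3.73 and 15.0, a log2 fold change of 4.21 ± 0.63 (edgeR adjusted p = 0.0158). Sel1l, the scaffold of the HRD1 ubiquitin ligase, was at 67.1, 70.4 and 71.9 CPM in vehicle and at 155, 90.5 and 124 CPM in tunicamycin (log2 0.82 ± 0.16, edgeR adjusted p = 0.0399). Syvn1, which encodes the ligase itself, overlapped between the groups, at 15.5, 14.4 and 22.7 CPM in vehicle and at 63.4, 18.3 and 55.7 CPM in tunicamycin (edgeR adjusted p = 0.0822). The 40 tested proteasome genes had no call and a median of 0.05, which turned to -0.14 with total count scaling.

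N-glycosylation itself is the step the drug blocks. Of 42 tested genes for assembly, transfer and trimming of N-glycans, 1 rose (0.290% of all genes) and 12 were higher at an unadjusted p under 0.05 (7.93%). Ddost, a subunit of the oligosaccharyltransferase that moves the glycan onto proteins, was at 11.5, 14.4 and 14.1 CPM in vehicle and at 26.0, 23.8 and 19.8 CPM in tunicamycin (log2 0.80 ± 0.15, edgeR adjusted p = 0.0388). Stt3b, a catalytic subunit of the same complex, was at 29.8, 31.1 and 35.1 CPM in vehicle and at 48.0, 45.6 and 37.97 CPM in tunicamycin (edgeR adjusted p = 0.124). Of 58 tested genes of the translocon, signal peptidase and coat vesicles none was called, while 23 were higher at an unadjusted p under 0.05 (7.93% of all genes) and 1 lower (6.85%). With total count scaling 3 of the 58 were higher at that p and 2 lower, against 3.27% and 18.0% of all genes, and 4 and 2 of the 42 N-glycan genes. The median was 0.22 for the N-glycan list and 0.26 for the translocon list, and 0.03 and 0.07 with total count scaling.

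Tmed9, a cargo receptor of transport vesicles, had the smallest p of the translocon and coat list. It was at 12.6, 14.7 and 11.7 CPM in vehicle and at 26.0, 20.3 and 18.5 CPM in tunicamycin (edgeR adjusted p = 0.0512). Sec61a1, the pore of the translocon, was at 45.1, 40.1 and 41.3 CPM in vehicle and at 63.6, 57.7 and 52.0 CPM in tunicamycin (edgeR adjusted p = 0.113). In both genes the treated libraries lay above all controls, with library 3 lowest. Gfpt1, which starts the hexosamine pathway that supplies sugar for glycans, was at 15.8, 20.1 and 20.3 CPM in vehicle and at 41.8, 21.1 and 29.8 CPM in tunicamycin (edgeR adjusted p = 0.155).

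Aminoacyl-tRNA synthetases are partly under ATF4 control. Of 43 tested synthetases and initiation factors none was called. At an unadjusted p under 0.05, 11 were higher (7.93% of all genes) and none was lower (6.85%). With total count scaling 3 were higher and 2 lower (3.27% and 18.0% of all genes), and the list median of 0.15 turned to -0.04. Yars, the synthetase for tyrosine, was at 4.07, 4.74 and 3.06 CPM in vehicle and at 7.02, 6.65 and 6.79 CPM in tunicamycin (edgeR adjusted p = 0.0966). Aars, for alanine, was at 39.2, 45.9 and 43.3 CPM in vehicle and at 69.5, 63.9 and 50.2 CPM in tunicamycin (edgeR adjusted p = 0.104). The treated values of Yars were alike in the 3 libraries.

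Of 13 tested sensors and transcription factors of the response 1 rose (0.290% of all genes), with a median log2 fold change of 0.20 that was 0.01 with total count scaling. Xbp1, whose mRNA IRE1 splices, was at 38.2, 47.7 and 40.2 CPM in vehicle and at 85.0, 67.3 and 61.3 CPM in tunicamycin (log2 0.76 ± 0.16, edgeR adjusted p = 0.0465), and counts per gene do not separate its spliced form. Atf6 was at 41.3, 39.1 and 38.6 CPM in vehicle and at 64.3, 41.7 and 50.01 CPM in tunicamycin (edgeR adjusted p = 0.213). Atf4, which is controlled largely by translation, was at 14.5, 14.2 and 13.7 CPM in vehicle and at 20.9, 12.5 and 25.9 CPM in tunicamycin (edgeR adjusted p = 0.326). For Atf4, library 2 lay below the vehicle libraries while libraries 1 and 3 lay above them.

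Of 24 tested targets of ATF4 and CHOP 2 rose, Ddit3 and Nupr1, against 0.290% of all genes. The list medians were 0.56, 0.13 and 0.34 in tunicamycin libraries 1, 2 and 3, and 7, 2 and 6 of the 24 were past 2-fold higher in them. Of all 9644 genes, 343, 330 and 119 were. In library 2, 11 of the 24 lay above every vehicle library (45.8%, against 32.5% of all genes). In libraries 1 and 3 it was 16 each (66.7%, against 33.0% and 30.0% of all genes). Ddit3, which encodes CHOP, had 10, 5 and 13 reads in vehicle and 191, 8 and 132 in tunicamycin. In CPM it was at 1.20, 0.641 and 1.90 against 26.3, 1.30 and 20.4, a log2 fold change of 3.71 ± 0.72 (edgeR adjusted p = 0.0399), with library 2 inside the vehicle range. Nupr1, a small stress-induced chromatin protein, had 1, 2 and 4 reads in vehicle and 77, 4 and 87 in tunicamycin. In CPM it was at 0.120, 0.256 and 0.583 against 10.6, 0.649 and 13.4 (log2 4.70 ± 0.85, edgeR adjusted p = 0.0381), so its call came from libraries 1 and 3.

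Other markers of this arm did not pass the test. Trib3, a pseudokinase induced by CHOP, was at 0.479, 0.256 and 1.31 CPM in vehicle and at 9.22, 0.649 and 8.64 CPM in tunicamycin (edgeR adjusted p = 0.0512), with library 2 inside the vehicle range. Atf3, a related transcription factor under the filter on low counts, had 2, 2 and 0 reads in vehicle and 70, 0 and 8 in tunicamycin. Asns, an amino acid synthesis gene of the same arm, was at 0.359, 1.03 and 3.94 CPM in vehicle and at 3.72, 3.08 and 1.70 CPM in tunicamycin (edgeR adjusted p = 0.772).

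Dnajb9, a J-domain protein that represses IRE1, was at 47.8, 36.0 and 34.3 CPM in vehicle and at 83.7, 26.8 and 61.9 CPM in tunicamycin (edgeR adjusted p = 0.409). Herpud1, an ERAD scaffold, was at 113, 103 and 142 CPM in vehicle and at 165, 60.6 and 192 CPM in tunicamycin (edgeR adjusted p = 0.800). In both genes library 2 lay below every vehicle library and libraries 1 and 3 above every one.

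**Figure D1:**
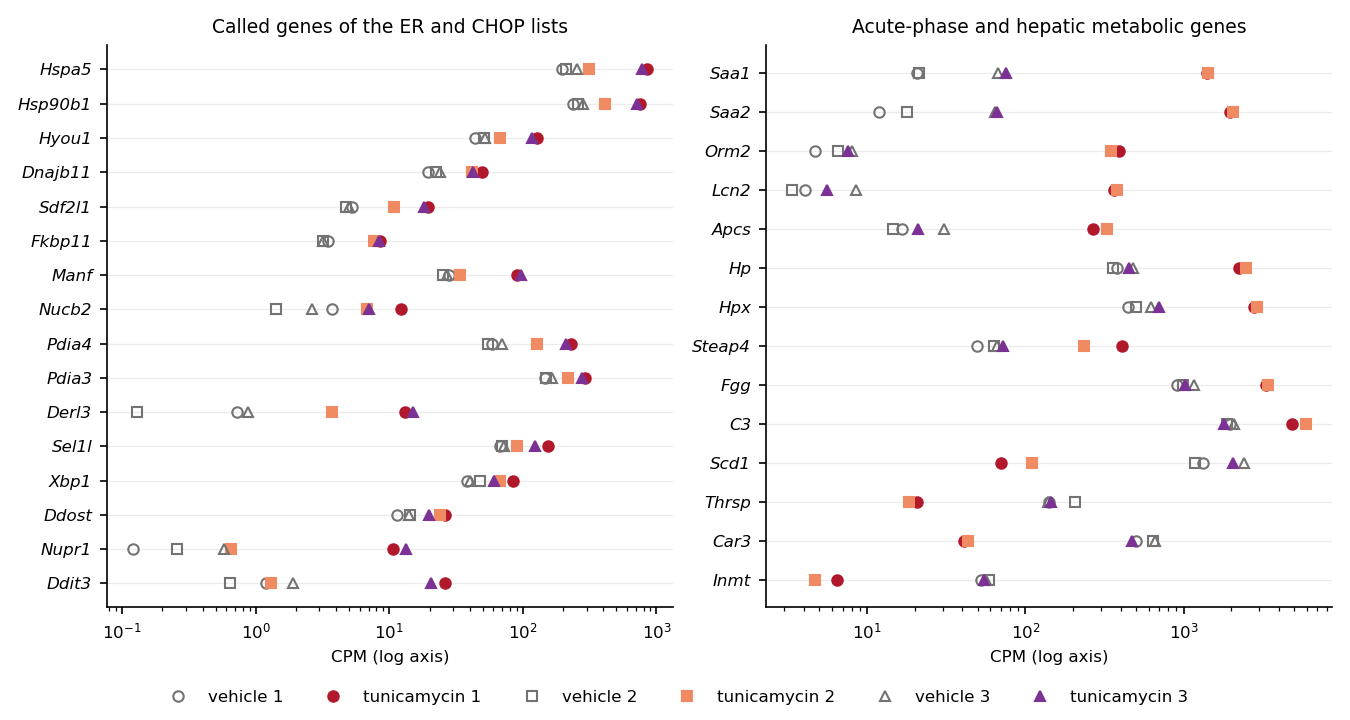
CPM on a log axis in the 3 vehicle (open) and 3 tunicamycin (filled) libraries, 1 point per library, for the called genes of the ER and CHOP lists (left) and for acute-phase and metabolic genes (right). On the left tunicamycin 2 (square) lies nearest the vehicle points for Hspa5, at 313 CPM, and on the right tunicamycin 3 (triangle) lies among or near them for Saa1, at 75.6 CPM.

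Acute-phase genes, which code for plasma proteins of the early reaction to injury, were high in tunicamycin libraries 1 and 2 and near vehicle in library 3. Of 32 tested genes 2 rose (0.290% of all genes) and 26 were higher at an unadjusted p under 0.05 (7.93%). All 32 had a positive log2 fold change, with a median of 1.62. Against the vehicle mean, the list's median log2 difference was 1.88 and 1.93 in tunicamycin libraries 1 and 2 and 0.04 in library 3. Of the 32 genes, 25 and 26 were past 2-fold higher in libraries 1 and 2, and 3 in library 3. Of all 9644 genes tested, 343, 330 and 119 were past 2-fold higher in libraries 1, 2 and 3. Without library 3, 25 of the 32 rose, against 3.22% of all genes. None did without any 1 of the other WT libraries or without any 1 of the LKO tunicamycin libraries. The count was 6, 9 and 8 without LKO vehicle library 1, without 2, and without 3 and 4. Of all genes, 34 of 9869, 45 of 9903 and 49 of 9891 rose in these LKO vehicle runs.

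Both called members were also iron-handling genes. Hpx encodes hemopexin, the plasma protein that binds free heme, and was at 443, 504 and 626 CPM in vehicle and at 2787, 2901 and 696 CPM in tunicamycin (log2 2.02 ± 0.41, edgeR adjusted p = 0.0427). Steap4, a metalloreductase, was at 49.6, 63.0 and 66.5 CPM in vehicle and at 408, 234 and 71.9 CPM in tunicamycin (log2 1.997 ± 0.40, edgeR adjusted p = 0.0399). In both, library 3 lay just above the highest vehicle library.

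The serum amyloid genes Saa1 and Saa2 on chromosome 7 are near-identical copies, so reads may be split between them with error. Saa1 was at 20.6, 21.1 and 67.5 CPM in vehicle and at 1407, 1428 and 75.6 CPM in tunicamycin (edgeR adjusted p = 0.0512). Saa2 was at 11.9, 17.9 and 63.8 CPM in vehicle and at 1970, 2060 and 66.4 CPM in tunicamycin (edgeR adjusted p = 0.0527). Neither passed the test, and in both library 3 stood next to vehicle library 3 and far below libraries 1 and 2.

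Lcn2, lipocalin 2, which binds bacterial siderophores, was at 4.07, 3.33 and 8.45 CPM in vehicle and at 365, 378 and 5.56 CPM in tunicamycin (edgeR adjusted p = 0.0512). Orm2, an orosomucoid with close copies, was at 4.67, 6.54 and 8.02 CPM in vehicle and at 393, 347 and 7.56 CPM in tunicamycin (edgeR adjusted p = 0.0512). Hp, haptoglobin, which binds free hemoglobin, was at 378, 357 and 479 CPM in vehicle and at 2232, 2466 and 453 CPM in tunicamycin (edgeR adjusted p = 0.0512). Library 3 lay inside the vehicle range for all 3 genes.

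Complement and coagulation genes shared this order in part. Of 39 tested none was called and 13 were higher at an unadjusted p under 0.05 (7.93% of all genes), with list medians of 0.24, 0.46 and -0.01 in tunicamycin libraries 1, 2 and 3. Fgg, the fibrinogen gamma chain, was at 904, 992 and 1166 CPM in vehicle and at 3317, 3388 and 1026 CPM in tunicamycin (edgeR adjusted p = 0.101). C3, the central complement component, was at 1956, 1872 and 2094 CPM in vehicle and at 4823, 5951 and 1800 CPM in tunicamycin (edgeR adjusted p = 0.120), with library 3 below the vehicle range. No call was made among the regulators of this response, 22 tested IL-6, STAT3 and C/EBP genes. Socs3, the feedback inhibitor of IL-6 signalling, was at 2.87, 1.67 and 2.77 CPM in vehicle and at 7.98, 7.13 and 2.16 CPM in tunicamycin (edgeR adjusted p = 0.156). Nfkbia, the inhibitor of NF-kB, was lower in all 3 treated libraries, at 11.9, 8.71 and 12.7 CPM in vehicle and at 5.37, 3.89 and 8.18 CPM in tunicamycin (edgeR adjusted p = 0.0822).

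Neutrophil transcripts moved with the acute-phase genes. The 10 neutrophil markers summed to 0.719, 0.641 and 1.02 CPM in vehicle and to 10.1, 5.67 and 1.24 CPM in tunicamycin. S100a8 gave 1, 1 and 3 reads in vehicle and 35, 15 and 1 in tunicamycin, and S100a9 gave 4, 0 and 3 against 18, 9 and 0. Mpo and Camp, which mark neutrophil granules, had at most 1 read in any WT library. None of the 10 was at 0 in all 6 libraries, 2 were tested and none was called. Erythroid markers were lower in tunicamycin libraries 1 and 2, while library 3 lay inside the vehicle range. They summed to from 19.0 to 26.1 CPM in vehicle and to 13.9, 11.7 and 19.3 CPM in tunicamycin. Of the 8 erythroid markers counted, the 4 globin genes were at 0 and only 1 marker was tested. The part of these cells in the acute-phase result was not tested.

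**Figure D2:**
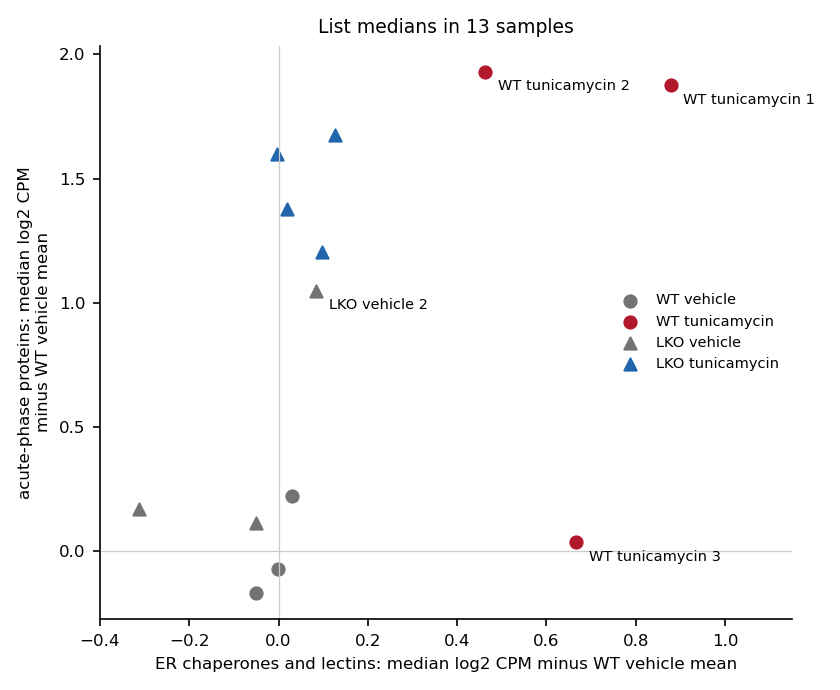
Each point is 1 of 13 samples, with the median log2 CPM difference from the WT vehicle mean over 25 ER chaperone genes (x) and 32 acute-phase genes (y). WT tunicamycin 3 lies at 0.67 and 0.04, WT tunicamycin 2 at 0.46 and 1.93, and the LKO tunicamycin samples lie high on the y axis and near 0 on the x axis.

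The lipogenesis list, genes for making fatty acids and triglycerides, had a median below vehicle in tunicamycin libraries 1 and 2 and near vehicle in library 3. Of 23 tested lipogenesis genes none was called. At an unadjusted p under 0.05, 12 were lower (6.85% of all genes) and 1 was higher (7.93%). The list's medians were -0.81, -0.66 and -0.07 in libraries 1, 2 and 3. Without library 3, 12 of the 23 fell and 1 rose, where 2.97% of all genes fell and 3.22% rose.

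Scd1, the desaturase that makes monounsaturated fatty acids, was at 1331, 1182 and 2389 CPM in vehicle and at 70.5, 111 and 2046 CPM in tunicamycin (edgeR adjusted p = 0.571). Thrsp, a regulator of fatty acid synthesis, was at 142, 205 and 140 CPM in vehicle and at 20.6, 18.5 and 146 CPM in tunicamycin (edgeR adjusted p = 0.283). Mlxipl, which encodes the carbohydrate-sensing factor ChREBP, was lowest by p on this list, at 31.5, 19.7 and 29.3 CPM in vehicle and 21.6, 16.5 and 16.1 CPM in tunicamycin (edgeR adjusted p = 0.129). Its groups overlapped, and library 3 was not apart from libraries 1 and 2.

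Car3, a carbonic anhydrase abundant in male liver, was at 499, 640 and 657 CPM in vehicle and at 41.1, 43.6 and 472 CPM in tunicamycin (edgeR adjusted p = 0.213). Inmt, an amine methyltransferase, was at 52.8, 58.6 and 56.3 CPM in vehicle and at 6.47, 4.70 and 54.6 CPM in tunicamycin (edgeR adjusted p = 0.339). Gsta4, a glutathione transferase, was at 18.8, 17.6 and 17.5 CPM in vehicle and at 3.72, 3.89 and 14.7 CPM in tunicamycin (edgeR adjusted p = 0.126). In all 3 genes libraries 1 and 2 were low and close to each other, and library 3 was the nearest to vehicle.

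Nuclear-encoded oxidative phosphorylation had no call among 57 tested genes, with 12 lower and 0 higher at an unadjusted p under 0.05 (6.85% and 7.93% of all genes) and medians of -0.37, -0.40 and 0.08 in libraries 1, 2 and 3. Without library 3, 13 of the 57 fell, against 2.97% of all genes. Cytochrome P450 enzymes had no call among 45, with medians of -0.38, -0.19 and 0.00. Glucose production and glycogen had no call among 26, with medians of -0.42, -0.33 and -0.13. At an unadjusted p under 0.05, 11 of these 26 were lower (6.85% of all genes) and 1 higher (7.93%). Cyp4a12b, a fatty acid hydroxylase with a close copy, was at 22.0, 18.8 and 19.4 CPM in vehicle and at 4.68, 4.86 and 15.9 CPM in tunicamycin (edgeR adjusted p = 0.111).

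Other hepatocyte functions were described by lists without a call. Fatty acid oxidation and ketogenesis had a median of -0.20 over 34 tested genes. At an unadjusted p under 0.05, 6 were lower and 1 higher (6.85% and 7.93% of all genes). NRF2 antioxidant genes had a median of -0.24 over 26, and Cat, catalase, was at 803, 960 and 884 CPM in vehicle and at 478, 570 and 775 CPM in tunicamycin (edgeR adjusted p = 0.168). Bile acid synthesis and transport had a median of -0.12 over 23, and Baat, which conjugates bile acids to amino acids, was at 67.1, 66.8 and 60.4 CPM in vehicle and at 41.1, 32.9 and 53.7 CPM in tunicamycin (edgeR adjusted p = 0.0923). The treated libraries lay below every control for Cat and Baat, with library 3 the highest of them.

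The urea cycle and amino acid catabolism list had a median of -0.16 over 29 genes. Cps1, the entry enzyme of the urea cycle, was at 1223, 1530 and 1475 CPM in vehicle and at 699, 992 and 1273 CPM in tunicamycin (edgeR adjusted p = 0.277), with library 3 inside the vehicle range. Nr1i3, which encodes the xenobiotic receptor CAR, was at 20.4, 16.0 and 19.0 CPM in vehicle and at 10.6, 10.5 and 12.5 CPM in tunicamycin (edgeR adjusted p = 0.126), alike in the 3 treated libraries.

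Cholesterol synthesis had no call among 24 genes, of which 17 had a positive log2 fold change, and medians of 0.02, 0.49 and 0.33 in libraries 1, 2 and 3. The controls were spread as widely, with medians of -0.51, 0.33 and 0.24 for each vehicle library against the other 2. The list median of 0.27 was 0.07 with total count scaling and 0.07 without vehicle library 1. Apolipoproteins and lipoprotein assembly had no call among 22 and medians of 0.03, 0.13 and 0.05, and the list median of 0.05 turned to -0.14 with total count scaling.

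**Figure D3:**
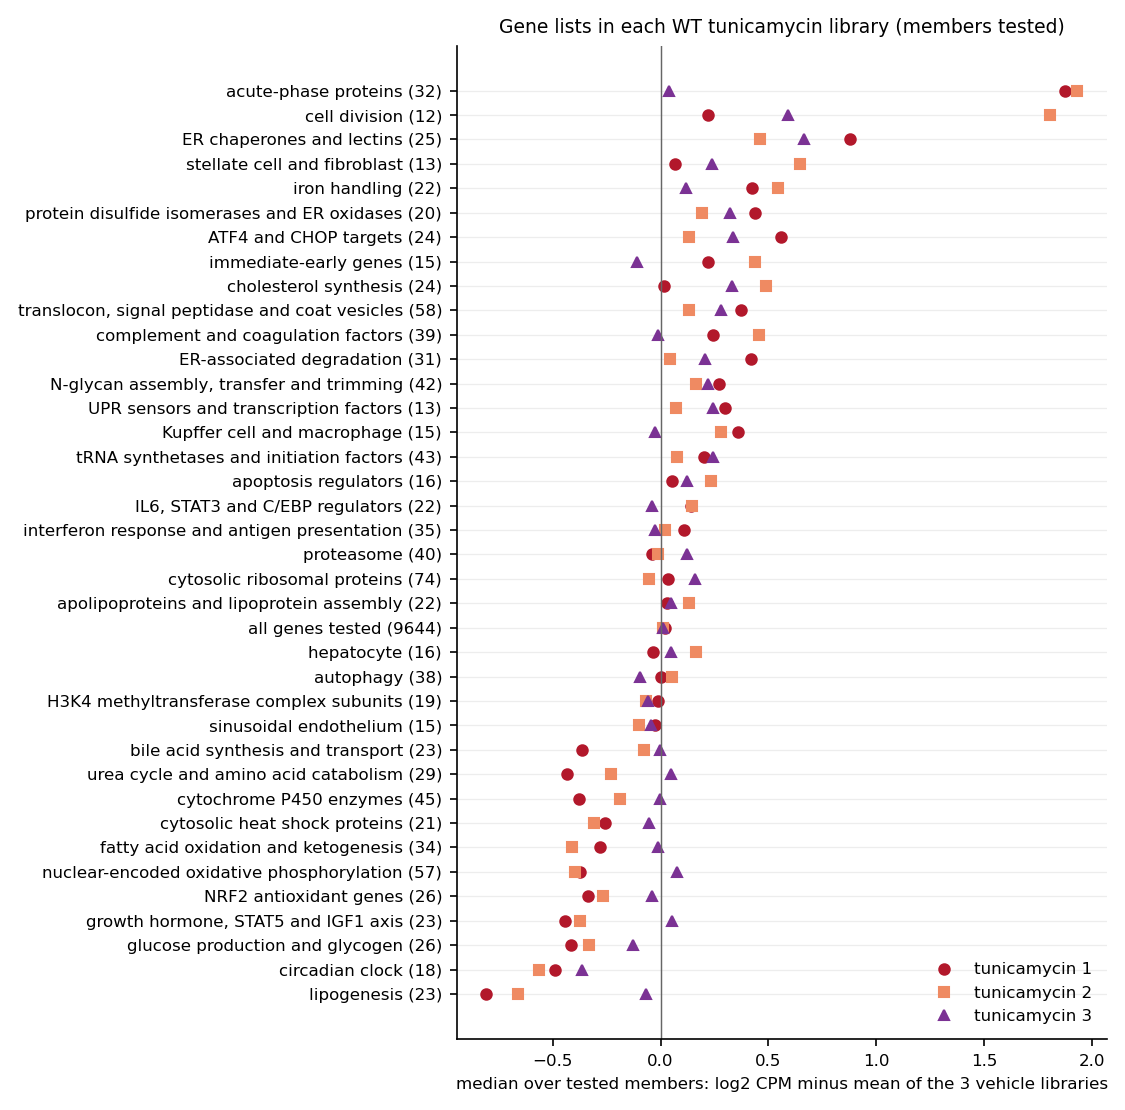
For each gene list with at least 10 tested members (number in brackets), the median log2 CPM minus the vehicle mean is plotted for tunicamycin libraries 1 (circle), 2 (square) and 3 (triangle). ER lists lie above 0 in all 3 libraries, the acute-phase list lies near 1.9 in libraries 1 and 2 and at 0.04 in library 3, and the clock list lies below 0 in all 3.

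The median of the clock list was below vehicle in all 3 treated libraries, with no call. Of its tested genes 16 had a negative log2 fold change and 2 a positive one. Of 18 tested, 11 were lower at an unadjusted p under 0.05 (6.85% of all genes) and none was higher (7.93%). In 14 of the 18 every tunicamycin library lay below every vehicle library, against 8.65% of all genes. The list's medians were -0.49, -0.56 and -0.36 in libraries 1, 2 and 3, and its median log2 fold change was -0.48. With total count scaling 5 of the 18 fell (1.19% of all genes) and the median was -0.66, and without tunicamycin library 3, 4 fell (2.97%).

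Per1, a repressor of the clock that also responds to acute signals, was at 11.02, 8.71 and 10.5 CPM in vehicle and at 7.16, 5.51 and 6.33 CPM in tunicamycin (log2 -0.66 ± 0.16, edgeR adjusted p = 0.0755). Hlf, an output factor of the clock, was at 20.5, 20.3 and 19.97 CPM in vehicle and at 12.3, 13.6 and 16.2 CPM in tunicamycin (log2 -0.53 ± 0.14, edgeR adjusted p = 0.0923). Bhlhe41, another repressor, was at 2.40, 3.46 and 2.19 CPM in vehicle and at 1.51, 0.649 and 1.08 CPM in tunicamycin (edgeR adjusted p = 0.111). The groups did not overlap in any of these 3 genes. In the other direction, Clock was at 20.7, 16.8 and 19.5 CPM in vehicle and at 27.7, 26.4 and 17.9 CPM in tunicamycin. For Clock, libraries 1 and 2 lay above every vehicle library and library 3 inside their range. All livers were taken at the same interval after a morning injection, so the data hold 1 phase of the day.

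Dusp1 (chromosome 17, 26505591 to 26508472) was the called gene with the smallest p among those that fell. It had 65, 69 and 68 reads in vehicle and 12, 11 and 24 in tunicamycin. In CPM it was at 7.78, 8.84 and 9.91 against 1.65, 1.78 and 3.70, a log2 fold change of -1.89 ± 0.30 (edgeR adjusted p = 0.0170). Of the 15 tested immediate-early genes no other was called. At an unadjusted p under 0.05, 3 were higher (7.93% of all genes) and 2 lower (6.85%), and the list median was 0.30. Gadd45g, a stress sensor and the other of these 2, was at 8.62, 3.84 and 7.29 CPM in vehicle and at 1.79, 2.43 and 2.16 CPM in tunicamycin, without overlap (edgeR adjusted p = 0.242). Hspa1b, the inducible cytosolic Hsp70 with a close copy, was at 3.83, 4.23 and 4.08 CPM in vehicle and at 1.101, 1.14 and 2.16 CPM in tunicamycin (edgeR adjusted p = 0.109). Cytosolic heat shock genes as a list had a median of -0.19. Of the 21 tested, 5 were lower and 1 higher at an unadjusted p under 0.05 (6.85% and 7.93% of all genes).

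Of the 35 called genes 16 belonged to no pathway list. Morf4l2, a subunit of chromatin complexes, was at 11.7, 13.6 and 13.9 CPM in vehicle and at 27.9, 20.9 and 24.1 CPM in tunicamycin (log2 0.90 ± 0.14, edgeR adjusted p = 0.0168). St3gal3, a sialyltransferase that caps glycans in the Golgi, was at 10.8, 10.9 and 10.5 CPM in vehicle and at 17.8, 16.7 and 17.9 CPM in tunicamycin (log2 0.70 ± 0.12, edgeR adjusted p = 0.0236). Both groups of St3gal3 were tight, and its rise was alike in the 3 libraries.

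Eno1b, a processed copy of the enolase gene Eno1, had 18, 10 and 7 reads in vehicle and 0, 1 and 2 in tunicamycin (edgeR adjusted p = 0.0388), and its reads cannot be told safely from those of Eno1.

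Of the linker histone genes, Hist1h1c and Hist1h1e were called, and sequences within this family are close. Hist1h1c was at 1.80, 2.44 and 2.19 CPM in vehicle and at 9.36, 4.86 and 4.48 CPM in tunicamycin (log2 1.56 ± 0.29, edgeR adjusted p = 0.0398). Hist1h1e was at 5.51, 5.51 and 5.25 CPM in vehicle and at 9.77, 11.5 and 9.72 CPM in tunicamycin (log2 0.92 ± 0.18, edgeR adjusted p = 0.0399). Histone mRNAs mostly lack polyA tails, so their counts depend on the library method.

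Among the other genes that rose, Ctsl, the lysosomal protease cathepsin L, was at 72.5, 76.5 and 80.5 CPM in vehicle and at 140, 139 and 107 CPM in tunicamycin. Krt18, the hepatocyte keratin, was at 14.7, 16.4 and 15.6 CPM in vehicle and at 24.9, 33.4 and 21.9 CPM in tunicamycin. Fndc3b was at 13.9, 12.9 and 13.99 CPM in vehicle and at 46.5, 44.8 and 17.9 CPM in tunicamycin. In these 3 genes, with edgeR adjusted p values of 0.0465, 0.0414 and 0.0399, library 3 gave the smallest rise. As3mt, Ddx28 and Sept11 also rose, with log2 fold changes of 1.11, 1.52 and 1.43.

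Among those that fell, Fchsd2 was at 16.8, 16.3 and 16.8 CPM in vehicle and at 9.22, 8.76 and 9.11 CPM in tunicamycin (log2 -0.88 ± 0.17, edgeR adjusted p = 0.0399). Amotl2, a regulator of cell junctions and of YAP, was at 9.70, 10.6 and 11.2 CPM in vehicle and at 5.23, 4.86 and 4.94 CPM in tunicamycin (log2 -1.06 ± 0.21, edgeR adjusted p = 0.0399). Both were alike in the 3 treated libraries. Gpd1l, Col27a1 and Adcy6 fell by 0.85, 1.67 and 1.30 on the log2 scale.

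**Figure D4:**
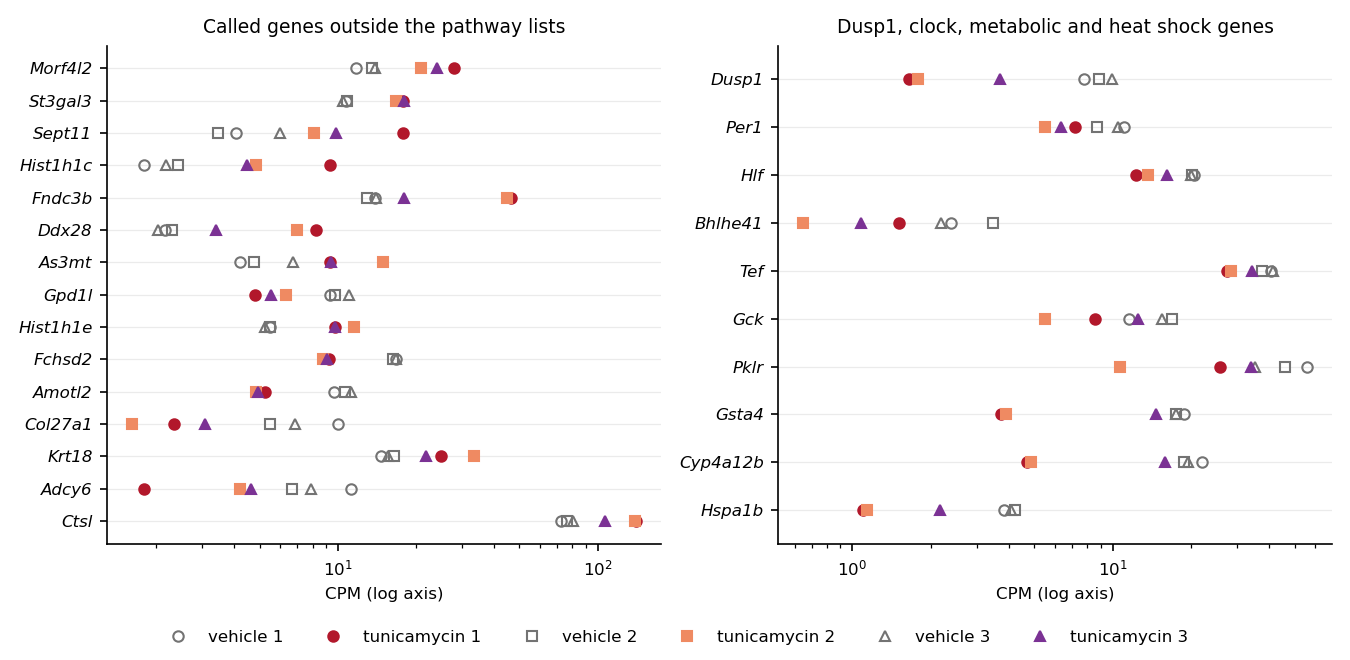
CPM on a log axis in the 3 vehicle (open) and 3 tunicamycin (filled) libraries for 15 called genes outside the pathway lists (left, Eno1b not drawn) and for Dusp1, clock, metabolic and heat shock genes (right). Fchsd2 lies between 8.76 and 9.22 CPM in tunicamycin and between 16.3 and 16.8 CPM in vehicle.

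Counting genes past 2-fold in each library showed the same division across the transcriptome. Among the 5980 genes whose log2 CPM averaged 2 or more, 127, 110 and 25 were past 2-fold higher than the vehicle mean in tunicamycin libraries 1, 2 and 3, and 118, 105 and 26 were past 2-fold lower. Each vehicle library against the other 2 gave from 7 to 9 higher and from 9 to 13 lower. Libraries 1 and 2 without 3 shared 58 higher genes, of which 20 were acute-phase genes, and 52 lower genes, with 4 of lipogenesis. Of all 9644 genes tested, 32 were on the acute-phase list and 23 on the lipogenesis list. Libraries 1 and 3 without 2 shared 10 higher genes and 0 lower. The 10 were Creld2, Gmppb, Hsp90b1, Hspa5, Hyou1, Ifrd1, Igfbp1, Manf, Sept11 and Syvn1.

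Among these 5980 genes, 7 were past 2-fold higher in all 3 treated libraries, and these were Fkbp11, Nucb2, Pdia4, Saa1, Saa2, Sdf2l1 and Sqle. For Saa1 and Saa2, library 3 passed against the vehicle mean, but at 75.6 and 66.4 CPM it was close to vehicle library 3 (67.5 and 63.8 CPM). Of the same 5980, 3 were past 2-fold lower in all, Col27a1, Dusp1 and Lipg. Called genes below that level, Derl3 and Hist1h1c (higher) and Eno1b (lower), also passed 2-fold in all 3 libraries. Sqle, squalene epoxidase of cholesterol synthesis, was at 6.23, 14.2 and 10.5 CPM in vehicle and at 20.5, 29.5 and 22.7 CPM in tunicamycin (edgeR adjusted p = 0.126). Lipg, endothelial lipase, was at 15.3, 7.43 and 14.1 CPM in vehicle and at 1.79, 2.11 and 5.56 CPM in tunicamycin (edgeR adjusted p = 0.0742). Among the 28 genes that rose, the weakest treated library was library 2 for 17, library 3 for 10 and library 1 for 1.

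**Figure D5:**
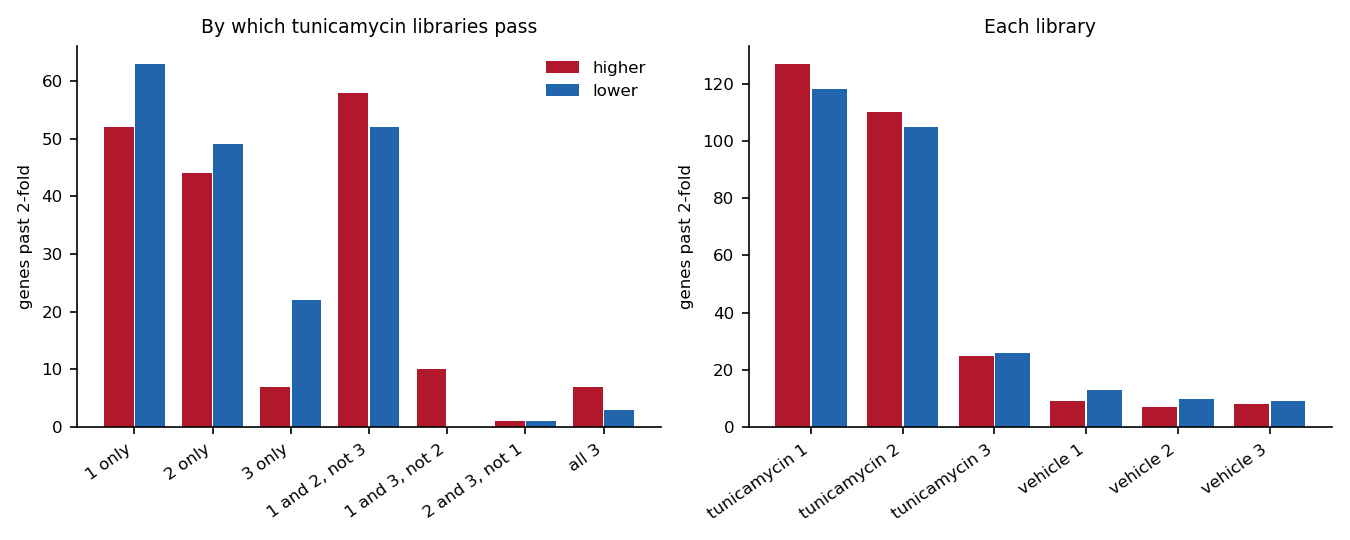
Bars count genes past 2-fold higher (red) or lower (blue) than the vehicle mean among 5980 genes, by which tunicamycin libraries pass (left) and for each library (right, each vehicle library against the other 2). Tunicamycin 1 and 2 share 58 higher and 52 lower genes that library 3 does not.

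Genes whose spread was wider among treated than among control libraries were ranked by the difference of their log2 ranges. The 12 at the top were Orm2, Lcn2, Rgs16, Scd1, Apoa4, Cxcl1, Inmt, Car3, Acnat2, Apcs, Saa2 and Saa1, with treated ranges from 3.48 to 6.03 on the log2 scale. Apoa4, an apolipoprotein of lipid transport, was at 17.0, 11.4 and 12.7 CPM in vehicle and at 46.8, 171 and 10.3 CPM in tunicamycin (edgeR adjusted p = 0.0822). Rgs16, a regulator of G-protein signalling, was at 13.8, 14.9 and 6.71 CPM in vehicle and at 1.93, 0 and 9.11 CPM in tunicamycin (edgeR adjusted p = 0.396). Igdcc4, a surface protein under the filter on low counts, had 0, 1 and 0 reads in vehicle and 5, 24 and 0 in tunicamycin. Setd7, Lrat and Mylip led the 12 genes that were wider among vehicle libraries, where the difference of the log2 ranges ran from -1.26 to -0.82.

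Cell division genes were highest in tunicamycin library 2. Of 28 listed, 12 passed the filter on low counts, which the LKO libraries also entered, and 6 passed with the 6 WT libraries alone. All 12 had a positive log2 fold change and none was called, but signs of genes selected this way are description only. The list medians were 0.22, 1.80 and 0.59 in libraries 1, 2 and 3. Some members were near the floor, such as Top2a at 0.24, 0.51 and 0.15 CPM in vehicle. Mcm6, of the replicative helicase, was at 0.719, 0.897 and 1.17 CPM in vehicle and at 2.48, 6.16 and 1.54 CPM in tunicamycin (edgeR adjusted p = 0.162). Stellate cell and fibroblast markers were also highest in library 2, summing to 175 CPM there, against 125 and 148 CPM in libraries 1 and 3 and from 96.4 to 147 CPM in vehicle. Col1a1, a collagen chain of fibroblasts, was at 1.20, 1.153 and 1.60 CPM in vehicle and at 2.20, 8.27 and 1.54 CPM in tunicamycin (edgeR adjusted p = 0.236). The part of these cells in the result was not tested.

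Several lists gave no call and a median near 0. The 74 cytosolic ribosomal protein genes had a median of 0.05, which was -0.14 with total count scaling, and the 38 autophagy genes had -0.01. Atg3, an autophagy conjugation enzyme, was at 27.3, 28.5 and 28.6 CPM in vehicle and at 20.8, 19.1 and 20.4 CPM in tunicamycin, without overlap but with an edgeR adjusted p of 0.0611. The 19 subunits of the H3K4 methyltransferase complexes had a median of -0.06. Macrophage markers summed to 103, 91.8 and 105 CPM in vehicle and to 124, 118 and 93.5 CPM in tunicamycin. Of 15 tested none was called and 14 had a positive log2 fold change. Their medians were 0.36, 0.28 and -0.03 in tunicamycin libraries 1, 2 and 3. T and NK cell markers summed to at most 1.28 CPM in any library.

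Whether the response differed by genotype was tested with the LKO livers. The effect of tunicamycin in LKO minus that in WT passed the edgeR test in 0 genes, as it did in 0 with DESeq2 and 0 with limma-voom. At an unadjusted edgeR p under 0.05 there were 474, which is 4.91% of the 9644 tested, and the smallest adjusted p was 0.935. Without WT tunicamycin library 3 there were 2. The test had 3 and 3 WT samples and 3 and 4 LKO samples, and it did not detect a difference between the genotypes for any single gene. Of the 35 genes called in WT, 34 had the same direction in LKO and all 35 a smaller size, but these genes were chosen for their size in WT.

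For 4 genes the LKO values are set beside those of WT. Hspa5 was at 127, 117 and 173 CPM in the 3 LKO vehicle samples and at 229, 142, 181 and 208 CPM in the 4 LKO tunicamycin samples. Ddit3 was at most 2.04 CPM in any LKO sample, and the interaction for neither gene passed the test. Dusp1 was at 7.35, 6.13 and 11.8 CPM in LKO vehicle and at 2.27, 2.47, 2.34 and 3.04 CPM in LKO tunicamycin, an edgeR log2 fold change of -1.74. Saa1 was at 66.5, 1185 and 209 CPM in LKO vehicle and at 1498, 1979, 927 and 1157 CPM in LKO tunicamycin. LKO vehicle library 2 was high without the drug, with an acute-phase list median of 1.05 against the WT vehicle mean, where the other 2 LKO vehicle samples had 0.17 and 0.11 and the LKO tunicamycin samples from 1.20 to 1.68.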

How the data were processed

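Liver RNA of 14 mouse libraries was compared, and the 6 WT libraries are the subject here. The authors' deposited counts hold STAR's read total for each gene, aligned to mm10 after Trimmomatic per the submitters' processing notes, without versions or parameters. Column 3, reads on the gene's strand, was used. The authors' deposited FPKM values, from Cufflinks per the same notes, served only as alternatives, tested with limma on log2(FPKM + 1) and log2(FPKM + 0.1). Of the FPKM names, 277 had more than 1 entry and were left out. The FPKM column of LKO vehicle 2 correlated with its own counts at r = 0.544 (deviations from gene means over 3638 genes), against 0.869 to 0.957 for the other columns, so FPKM results carry that doubt.

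Counts were fitted with edgeR 4.0.16 (R 4.3.3, TMM, filterByExpr by group, quasi-likelihood test, Benjamini-Hochberg over all genes tested), with 1 mean per group over 13 samples and 9 residual degrees of freedom. LKO vehicle 3 and LKO vehicle 4 were close to 1 library sampled again (chi-square 1.12 per degree of freedom, where 1.5 was the limit) and were summed as 1 sample. Genes were called at an adjusted p under 0.05. Log2 CPM used a prior count of 2. Alternatives were other filters, scalings, tools (limma 3.58.1, DESeq2 1.42.0), a replicate block and leaving out each sample. The code was tested on simulated data.

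Precision is limited by 3 libraries a group and by at most 2095849 reads outside Rn45s in a WT library. Named genes are the called genes (up to 40, the 12 smallest p and those on a list in full), 12 ER stress markers and up to 4 genes per list by p. Low-count genes with at least 20 reads in a treated library and at most 3 in each control are also named. Others come from the 12 genes whose log2 range among treated libraries exceeded that among controls by most, and the 12 with the opposite. Calr, Canx, Creld2, Thrsp, Lipg, Clock and the genes named only by their pattern over libraries were added after their values were seen. The genes, lists and tests were chosen with earlier results of these data known.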

Additional observations from a re-analysis of the deposited data

How the results depend on the processing

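The count of called genes, 35, depended on filter, tool and sample set, and the cause was not tested. It was 289 with no filter on low counts, 148 with total count scaling, 150 with DESeq2, 56 with 14 libraries and none summed, 53 with the unstranded column, 7 with the 6 WT libraries only and 9 with limma-voom. With log2(FPKM + 1) it was 3, with log2(FPKM + 0.1) 6, and with log2(FPKM + 1) and no filter 0, where 1984 genes had an unadjusted p under 0.05; the FPKM column of LKO vehicle 2 is in doubt. It was 32 with a minimum count of 20, 35 with RLE, 49 without Rn45s and 33 with robust dispersion. Leaving out 1 sample gave from 0 to 615 (68 without LKO vehicle 3 and 4). The interaction count was 0 in every alternative except without WT tunicamycin library 3, so leaving out 1 sample gave from 0 to 2. A replicate block gave 69 calls with 14 libraries and 21 with the 6 WT libraries. Whether the replicate numbers pair the samples cannot be decided from 3 libraries a group. Same-numbered WT vehicle and tunicamycin libraries had correlations of 0.036, -0.0035 and -0.12 (deviations from group means). The LKO libraries were not compared in this way. Of the values of single genes under the alternatives, 2556 kept direction and side of the threshold, 419 lost the call, 203 gained it and 4 changed sign, all of Herpud1. These were -0.017 with both log2(FPKM + 1) settings, -0.024 with log2(FPKM + 0.1) and -0.076 without WT tunicamycin library 3, where leaving out 1 sample gave up to 0.586. Dnajb11 kept its call in 24 of 29 alternatives and Ctsl in 12 of 29. Depth, at most 2095849 reads outside Rn45s, limits low genes such as Atf3.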
